A study of Mus musculus with 8 samples.

Results

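The 37 genes described here encode plasma proteins of blood clotting, clot removal and complement that hepatocytes secrete. They were taken from a list of gene symbols set by function, drawn up with earlier results of these data known. All 37 were found among the 19055 genes of the deposited table, and 36 reached 10 normalized reads or more in 3 or more of the 8 libraries. By role, 17 of the 37 belong to coagulation, 4 to fibrinolysis and 16 to complement. C2 was the 1 gene that did not reach that level, so every count below is over 36 genes, 15 of them from complement.

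Livers of mice aged 8 to 9 weeks were taken 48 hours after partial hepatectomy, performed with Buprex as analgesic and isoflurane as anaesthetic. There were 3 control livers, labelled URI(+/+)Hep and described as wild-type littermates, and 5 livers labelled URI(+/D)Hep. In the latter, URI had been deleted in hepatocytes by serum albumin-creERT2, a Cre that tamoxifen switches on, and the notation +/D keeps a wild-type allele. Mice were given tamoxifen over 1 week. Whole-liver RNA was counted from the 3′ ends of transcripts, so fewer cells of a type and less RNA per cell cannot be told apart. The sources used here do not state whether each library came from a separate animal, and p-values measure the spread between these libraries.

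In background terms, the liver makes nearly all circulating clotting zymogens. The contact proteins (factor XII, prekallikrein and kininogen) and the tissue factor route (factor VII) both lead through factor X and prothrombin to thrombin, which turns fibrinogen into fibrin. Antithrombin, heparin cofactor II, protein C and protein S restrain the cascade, and plasmin removes the clot. Complement is a second protease cascade in the same plasma, started by C1, by lectins with their proteases or by factor B, meeting at C3 and ending in a membrane pore. Fibrinogen and several complement genes are acute phase genes of hepatocytes, induced by interleukin 6.

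Depth ranged from 3838674 to 4800694 reads per library, and 3 reads correspond to 2.65 to 3.60 normalized reads. Uri1 itself stood at 384 ± 79.3 normalized reads (SD, n = 3) against 384 ± 42.7 (SD, n = 5), with an exact permutation p of 0.982, so the groups are named by label. A 3′ count need not show a deletion elsewhere in the gene. Hepatocyte markers, 11 of 12 listed by symbol in the table, summed to between 49773 and 58668 normalized reads in controls and between 45952 and 49878 in URI(+/D)Hep livers. A sum is weighted to the most abundant genes. Gene by gene, 6 had a negative and 5 a positive log2 fold change, URI(+/D)Hep against control, with a median of -0.096 and a mean of -0.0067. Xist and Y-linked reads were found together in control 3 and URI(+/D)Hep 2 to 5. Controls 1 and 2 had Y-linked reads with Xist at 9.59 and 2.95, and URI(+/D)Hep 1 had Xist at 2357 with Y-linked genes summing to 3.54. Xist was thus near absent in 2 of 3 controls and at 1217 or more in all 5 URI(+/D)Hep libraries, so sex makeup differed between the groups and its part in the results cannot be told apart from genotype. Whether a library pools animals is not stated, and n counts libraries. Mki67, which marks proliferation, stood at 23.99 in control 1 and 49.5 in URI(+/D)Hep 5, and between 268 and 586 in the other 6 libraries.

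No coagulation, fibrinolysis or complement gene differed between the groups past the threshold. With limma, 0 of 36 had an adjusted p under 0.05, against 0.0146% of all 13704 genes tested, and the smallest adjusted p was 0.147, for C1ra. At an unadjusted p under 0.05, limma counted 7 of the 36 genes (19.4%) lower in the URI(+/D)Hep livers, against 9.33% of all genes, and 0 higher, against 8.35%. For 6 of the 36 (16.7%) every library labelled URI(+/D)Hep lay below every control, against 7.3% of all genes, and for 0 every one lay above, against 6.13%. The exact permutation p, given below for these 6, was 0.0357 for each. It follows largely from the lack of overlap by which they were picked, so it is not a second result. On recovered reads edgeR and DESeq2 each called 0 of the 36, where DESeq2 called 2.94% of its 11540 adjusted genes lower. The median log2 fold change was -0.16 over the 36 genes, with 25 negative, and -0.0019 over all genes tested, with 50.2% negative. Over the 21 alternatives the negative genes numbered between 22, with quantile normalization, and 31, without control 1 or after adjusting for Y-linked reads.

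**Figure D1:**
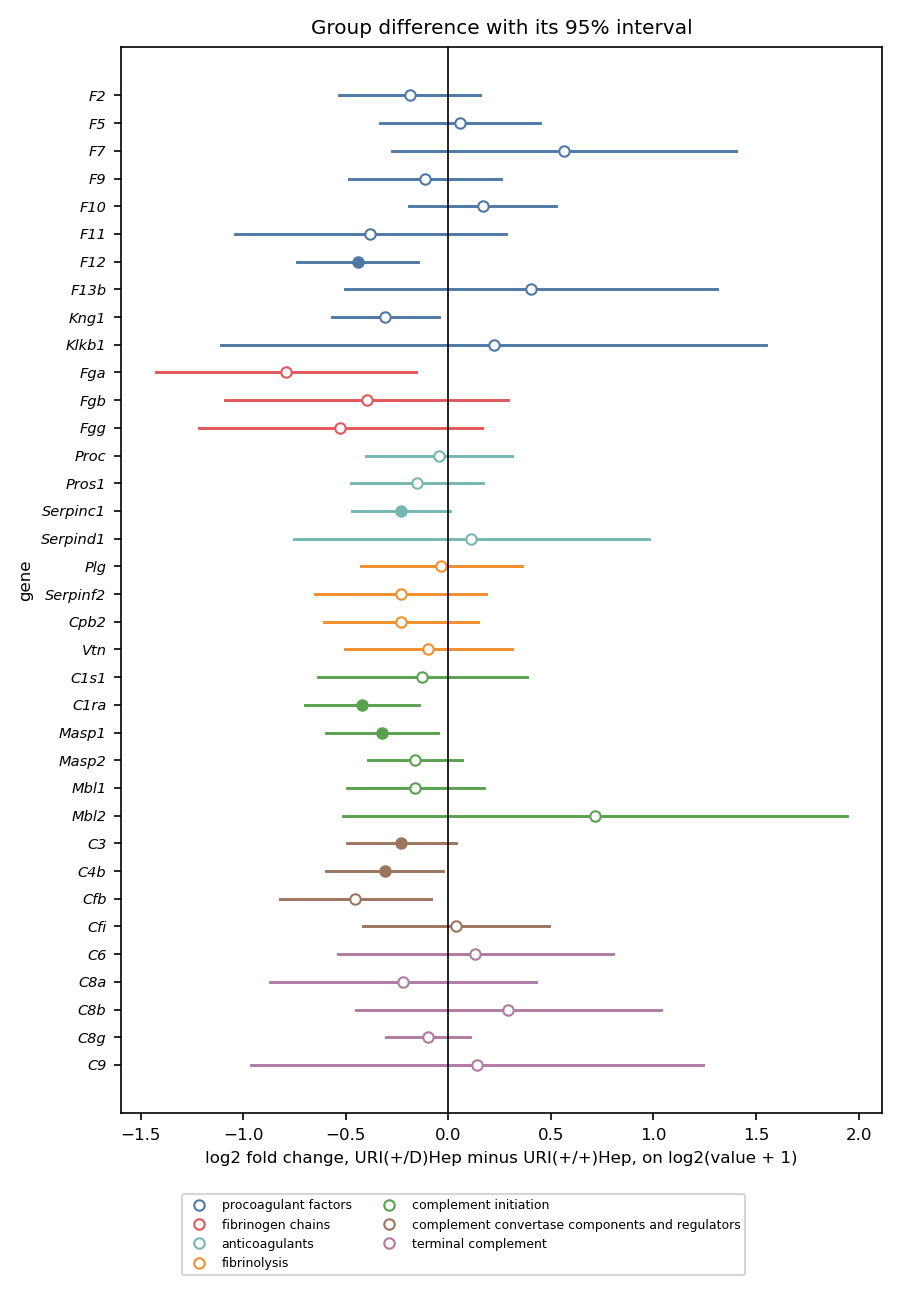
Log2 fold change of 36 genes (rows, coloured by role) with its 95% interval from limma, on the log2(value + 1) scale, 3 controls against 5 URI(+/D)Hep livers. Filled points mark the 6 genes whose groups do not overlap, and all 6 lie left of 0.

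All 3 fibrinogen genes had negative log2 fold changes, with those of Fga and Fgg the lowest of the 36. The chains Aα, Bβ and γ are encoded by Fga, Fgb and Fgg, which lie next to each other in the RefSeq gene order. Fga stood at 17918, 10006 and 6977 normalized reads in controls 1 to 3 and at 5973, 5070, 6170, 5981 and 8319 in URI(+/D)Hep 1 to 5. Fgb stood at 43487, 22493 and 15605 in the controls and at 18676, 16413, 16952, 17650 and 25825 in the other group. Fgg stood at 33232, 17181 and 12070 against 13334, 12201, 11295, 11863 and 18471. Control 1 was the highest library for all 3 chains, and URI(+/D)Hep 5 was the highest of its group, so the groups overlapped for each chain.

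The log2 fold change of Fga was -0.79 (SE 0.28, adjusted p = 0.202 by limma, exact permutation p = 0.0357, where 0.0179 is the smallest possible). Without control 1 it was -0.43, and between control 3, the only control that held Xist together with Y-linked reads, and URI(+/D)Hep 2 to 5 it was -0.15, with n = 1 in the control arm. DESeq2 on recovered reads without URI(+/D)Hep 5 called Fga lower, the 1 gene of the 36 called by any tool. That run, chosen after the data were seen, called 255 lower and 123 higher of 11575 genes with an adjusted p. For Fgb the difference was -0.40 (SE 0.31, adjusted p = 0.528 by limma), which became 0.0074 without control 1. For Fgg it was -0.53 (SE 0.31, adjusted p = 0.398 by limma), which became -0.12. Together the 3 chains took 2.06% of all reads in control 1, 1.24% in URI(+/D)Hep 5 and between 0.794 and 1.16% in the other 6 libraries.

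The proportion of Fga to Fgb differed between the groups more evenly than either level. The ratio of Fga to Fgb reads, in which library scaling cancels, was 0.412, 0.445 and 0.447 in the controls. It was 0.320, 0.309, 0.364, 0.339 and 0.322 in URI(+/D)Hep 1 to 5, all below the controls. The mean was 0.435 ± 0.0196 (SD, n = 3) against 0.331 ± 0.0215 (SD, n = 5), a 0.760-fold value, with an exact permutation p of 0.0179, the smallest possible (0.0536 adjusted over 3 chain ratios). Leaving out any 1 library kept the log2 difference between -0.43 and -0.37, against -0.40 with all 8. Among the controls the ratio was lowest, at 0.412, in control 1, which had the most Fgb reads; its relation to the level of Fgb was not tested. Fgg to Fgb was 0.767 ± 0.00547 (SD, n = 3) against 0.702 ± 0.0324 (SD, n = 5), also without overlap (exact permutation p = 0.0536), and Fga to Fgg was 0.567 ± 0.0238 against 0.473 ± 0.0519 (exact permutation p = 0.0536). These ratios were chosen after the values were seen, and they compare libraries, not the amounts of the chains.

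**Figure D2:**
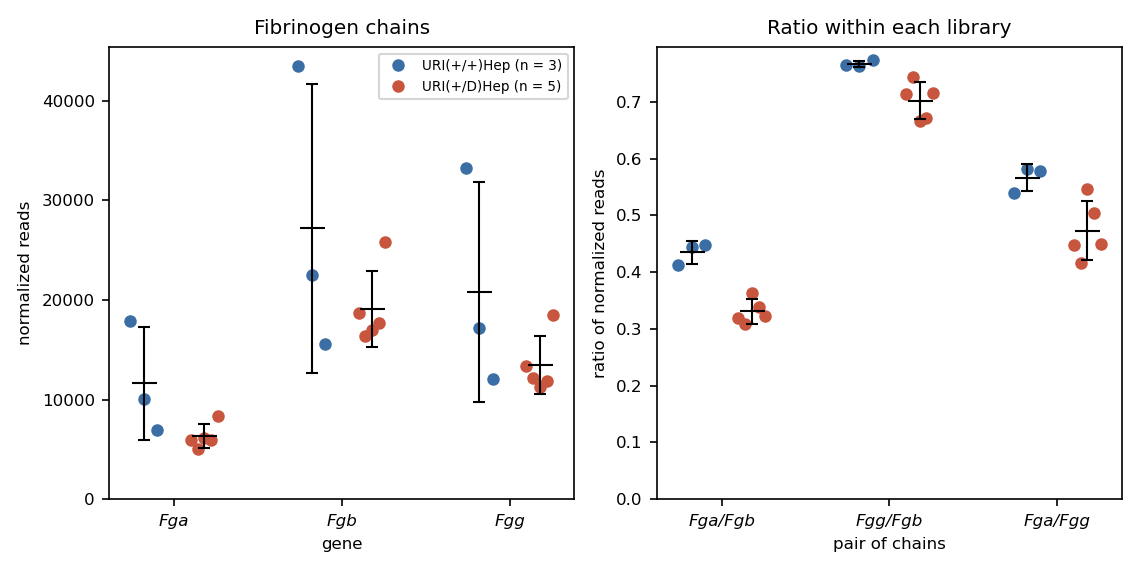
Left, normalized reads of each fibrinogen chain; right, the ratio of 2 chains within each library. Points are libraries (blue, URI(+/+)Hep, n = 3; red, URI(+/D)Hep, n = 5), bars are mean ± SD; Fga/Fgb runs from 0.412 to 0.447 in controls and from 0.309 to 0.364 in the other group.

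The chains varied together across libraries. On log2(value + 1), Fgb and Fgg had a Pearson r of 0.989 (exact permutation p = 0.000546, adjusted p = 0.00218 over 4 pairs) and a Spearman rho of 0.81 (exact permutation p = 0.0218, adjusted p = 0.0871) over 8 libraries. Fga had an r of 0.931 with Fgb (exact permutation p = 0.00568, adjusted p = 0.00757) and 0.950 with Fgg (exact permutation p = 0.00441, adjusted p = 0.00757). Its rho was 0.64 with Fgb (exact permutation p = 0.0962, adjusted p = 0.128) and 0.60 with Fgg (exact permutation p = 0.132, adjusted p = 0.132). The 2 libraries farthest from the median of the first gene of each pair were then left out. Without control 1 and URI(+/D)Hep 5, r was 0.909 for Fgb and Fgg. Without controls 1 and 2, r was 0.697 for Fga and Fgb and 0.730 for Fga and Fgg, so the 0.909 comes from other libraries than these. Measured as deviations from the group means, r was 0.994, 0.986 and 0.963 in that order.

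Because the chains varied together, the 250 bases before each start site are shown, as given by RefSeq on GRCm38.p6, and Mbl2, the gene with the widest range over libraries, is shown beside them. Of the 37 genes, 29 had such a window. Capitals mark matches, on either strand, to CTGGGAA (interleukin 6 response element), TTCNNNGAA (STAT site), GTTAAT (HNF1 half-site) or TTGCNNAA (C/EBP site), none of which overlap here.
Fga, chr3:83025903-83026152, plus strand: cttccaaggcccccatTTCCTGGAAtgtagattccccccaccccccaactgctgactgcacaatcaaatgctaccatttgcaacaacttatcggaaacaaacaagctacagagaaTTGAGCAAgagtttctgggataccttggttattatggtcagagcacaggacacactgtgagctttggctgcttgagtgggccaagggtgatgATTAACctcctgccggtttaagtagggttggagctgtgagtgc
Fgb, chr3:83049864-83050113, minus strand: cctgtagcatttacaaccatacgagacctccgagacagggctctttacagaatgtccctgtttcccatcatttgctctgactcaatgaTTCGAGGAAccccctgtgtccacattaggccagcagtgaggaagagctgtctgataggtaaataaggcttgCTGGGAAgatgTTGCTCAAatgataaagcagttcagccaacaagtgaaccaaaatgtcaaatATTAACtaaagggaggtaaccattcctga
Fgg, chr3:83007474-83007723, plus strand: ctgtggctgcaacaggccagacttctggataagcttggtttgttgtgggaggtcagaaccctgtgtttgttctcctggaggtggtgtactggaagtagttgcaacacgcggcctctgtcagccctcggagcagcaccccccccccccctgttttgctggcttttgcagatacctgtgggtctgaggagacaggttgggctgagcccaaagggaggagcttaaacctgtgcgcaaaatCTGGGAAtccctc
Mbl2, chr19:30232678-30232927, plus strand: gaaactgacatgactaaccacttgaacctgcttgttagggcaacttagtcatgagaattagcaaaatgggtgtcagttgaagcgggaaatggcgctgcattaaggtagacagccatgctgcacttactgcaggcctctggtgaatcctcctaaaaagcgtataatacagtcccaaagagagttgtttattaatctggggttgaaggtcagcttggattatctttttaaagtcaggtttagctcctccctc

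Fgb held a match to each of the 4 motifs, with CTGGGAA at bases -91 to -85 and TTGCNNAA at -80 to -73. Fga held all but CTGGGAA, Fgg held CTGGGAA alone, at -13 to -7, and Mbl2 held none. Over all 32851 RefSeq windows, CTGGGAA occurred in 9.10%, TTCNNNGAA in 7.02%, GTTAAT in 6.43% and TTGCNNAA in 9.56%. Among the 29 genes with a window the counts were 5, 6, 7 and 8 in that order (17.2, 20.7, 24.1 and 27.6%). Each of these genes was counted once over its windows, and the difference from all windows was not tested. A match describes letters and is not evidence of binding.

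Of the 4 contact pathway genes, F12, Kng1 and F11 had negative log2 fold changes and Klkb1 a positive one, which took the other sign without control 1. F12, which encodes the zymogen that starts contact activation, stood at 2375, 1973 and 1966 normalized reads in the 3 controls and at 1453, 1427, 1787, 1339 and 1761 in the URI(+/D)Hep livers. Every one of the latter lay below every control. The log2 fold change was -0.44 (SE 0.13, adjusted p = 0.15 by limma, exact permutation p = 0.0357), and it was -0.35 without control 1. Kng1, the kininogen that carries prekallikrein, had means of 7368 ± 513 (SD, n = 3) and 5965 ± 589 (SD, n = 5), a log2 difference of -0.31 ± 0.12 (SE; adjusted p = 0.220 by limma). Its ranges overlapped through URI(+/D)Hep 3 at 6975 and control 3 at 6848, and reads of the paralogue Kng2 may be shared with it.

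Klkb1 (prekallikrein) and F11 (factor XI) are neighbours with related sequence, and their values parted. Klkb1 stood at 331, 648 and 865 in controls and at 1236, 831, 726, 974 and 178 in URI(+/D)Hep 1 to 5, a range of 6.94-fold. F11 stood at 792, 425 and 296 in controls and at 405, 359, 386, 404 and 252 in the other group. In control 1, F11 was at its highest and Klkb1 at its second lowest, while in URI(+/D)Hep 5 both were at their lowest. Neither differed between groups beyond its spread: Klkb1 had a log2 fold change of 0.22 (95% interval -1.11 to 1.55; -0.17 without control 1) and F11 one of -0.38 (95% interval -1.04 to 0.28; 0.0041 without control 1). In the GENCODE vM21 annotation 43.2% of the exon bases of Klkb1 are shared with Gm45753. Of those within the last 500 bases of the gene, where 3′ reads fall, 0% are shared.

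Prothrombin and factors VII, IX and X are made with vitamin K, and all 4 intervals covered 0. F2, prothrombin, stood at 7506, 5365 and 6102 normalized reads in the 3 controls and at 6374, 5350, 4552, 6100 and 5288 in the other group. Control 1 was the highest library and URI(+/D)Hep 3 the lowest, with overlap between, and the log2 fold change was -0.19 (95% interval -0.53 to 0.15). It was -0.06 without control 1 and -0.02 with quantile normalization. F10, which cleaves prothrombin, stood at 1563, 2119 and 2564 against 2533, 2235, 2203, 2484 and 2036, with a log2 fold change of 0.17 (95% interval -0.19 to 0.53), or -0.02 without control 1. F7, the partner of tissue factor and the neighbour of F10, stood at 81.6, 137 and 198 against 299.6, 206, 133, 273 and 121. Control 1 was the lowest library for both genes. For F7 the log2 fold change was 0.56 (95% interval -0.27 to 1.4), and it was 0.23 without control 1 and 0.11 after adjusting for Y-linked reads. F9 had means of 406 ± 45.3 (SD, n = 3) and 378 ± 65.8 (SD, n = 5).

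The remaining procoagulant genes were F5, the cofactor of factor X, and F13b, the carrier subunit of the fibrin cross-linking enzyme. F5 had means of 2263 ± 232 (SD, n = 3) and 2386 ± 486 (SD, n = 5). F13b ranged 3.73-fold, from 126 in control 1 to 470 in control 3. Of the 10 procoagulant genes other than fibrinogen, 5 had a negative and 5 a positive log2 fold change, with a median of -0.03. Without control 1, 8 of the 10 were negative and the median was -0.09.

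Over the 4 anticoagulant genes the median was -0.10. Serpinc1, antithrombin, stood at 4723, 4848 and 5294 in controls and at 4621, 4103, 4255, 4449 and 3715 in the URI(+/D)Hep livers. All of the latter lay below the controls. The log2 fold change was -0.23 (SE 0.11, adjusted p = 0.299 by limma, exact permutation p = 0.0357). Serpind1, heparin cofactor II, had means of 440 ± 152 (SD, n = 3) and 497 ± 202 (SD, n = 5), and ranged from 211 in URI(+/D)Hep 5 to 750 in URI(+/D)Hep 1. Proc and Pros1, protein C and its cofactor, had log2 fold changes of -0.04 (95% interval -0.40 to 0.31) and -0.15 (95% interval -0.48 to 0.17).

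All 4 fibrinolysis genes had negative log2 fold changes, between -0.23 and -0.03, where 50.2% of all genes were negative. Without control 1 and URI(+/D)Hep 5, 3 of the 4 were negative. By limma 0 had an unadjusted p under 0.05, against 9.33% of all genes lower and 8.35% higher. Plg, plasminogen, stood at 3454, 3582 and 4179 normalized reads in the 3 controls and at 4713, 3515, 2984, 4287 and 3000 in the other group. The groups overlapped throughout, with URI(+/D)Hep 1 the highest and URI(+/D)Hep 3 the lowest library, and the log2 fold change was -0.03 (95% interval -0.43 to 0.36). Serpinf2, the plasmin inhibitor, had one of -0.23 (95% interval -0.65 to 0.18). Cpb2, the carboxypeptidase that protects fibrin, also had one of -0.23 (95% interval -0.61 to 0.15). Vtn, vitronectin, which binds the inhibitor of plasminogen activation, had one of -0.10 (95% interval -0.51 to 0.31).

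**Figure D3:**
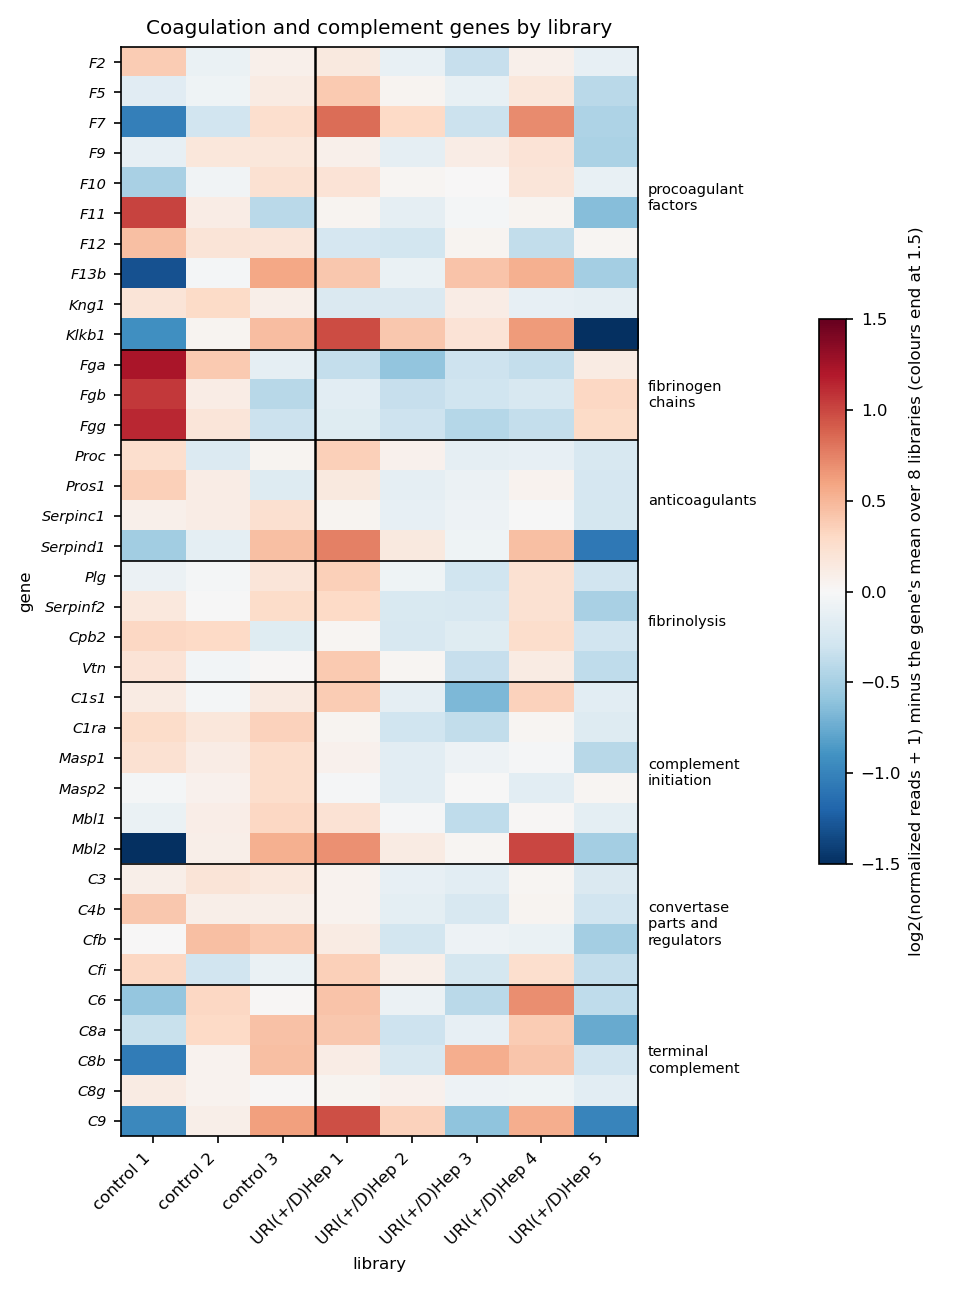
Each cell is log2(normalized reads + 1) of a gene (row) in a library (column) minus that gene's mean over 8 libraries, on a colour scale that ends at 1.5 in either direction; rows are grouped by role and the vertical line parts 3 controls from 5 URI(+/D)Hep livers. Control 1 and URI(+/D)Hep 5 share low values of 10 genes, Mbl2 and Klkb1 among them, and high values of Fgb and Fgg.

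Genes of complement initiation included the smallest p-value of the set. C1ra, a protease of the C1 complex, stood at 691, 642 and 726 in controls and at 588, 464, 443, 583 and 498 in the URI(+/D)Hep livers. The groups did not overlap, and the log2 fold change was -0.42 (SE 0.12, adjusted p = 0.147 by limma, exact permutation p = 0.0357). Under 21 alternative settings it lay between -0.55 and -0.37 with adjusted p-values of 0.0572 to 0.616. C1s1, its neighbour and the protease that it activates, had means of 678 ± 42.5 (SD, n = 3) and 642 ± 182 (SD, n = 5), with URI(+/D)Hep 3 at 401. The difference between C1ra and C1s1 was not tested.

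Among lectin pathway genes, Masp1, a protease carried by the lectins, stood at 961, 887 and 987 against 861, 734, 775, 809 and 615. Its groups did not overlap either, with a log2 difference of -0.32 ± 0.12 (SE; adjusted p = 0.218 by limma, exact permutation p = 0.0357). Masp2, which cleaves C4 and C2, had one of -0.16 (95% interval -0.39 to 0.07). Mbl2, a mannose-binding lectin, stood at 817, 3408 and 4626 in controls and at 5158, 3470, 3268, 6428 and 2250 in the other group. Control 1 was far below all other libraries, and the log2 fold change of 0.72 (95% interval -0.51 to 1.95) became -0.04 without it. Mbl1, the second mannose-binding lectin, ranged only 1.61-fold over the 8 libraries, against 7.87-fold for Mbl2, with a log2 fold change of -0.16 (95% interval -0.49 to 0.17).

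C3, C4b, Cfb and C2 encode parts of the convertases, the enzymes that cleave C3 and C5. C3 stood at 15575, 16804 and 16354 normalized reads in the 3 controls and at 15196, 13469, 13164, 14994 and 12622 in URI(+/D)Hep livers, without overlap. Its log2 fold change was -0.23 (SE 0.12, adjusted p = 0.342 by limma, exact permutation p = 0.0357). C4b stood at 3600, 2903 and 2907 against 2823, 2458, 2312, 2814 and 2232, again without overlap, with a log2 difference of -0.31 ± 0.13 (SE; adjusted p = 0.248 by limma, exact permutation p = 0.0357). Reads may be shared with the paralogue C4a. Without control 1 the log2 fold change of C4b was -0.21.

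Cfb, factor B, had means of 504 ± 79.6 (SD, n = 3) and 368 ± 59.3 (SD, n = 5), a log2 difference of -0.45 ± 0.16 (SE; adjusted p = 0.205 by limma). The groups overlapped through control 1 at 413, and without that library the value was -0.59. C2, its neighbour, stood between 0 and 5.30 normalized reads in all 8 libraries, at or near the level of 3 reads, so no fold change is given. In GENCODE vM21, on another build than the authors' GRCm39, Cfb and C2 share exon bases on the same strand with the gene Gm20547: 79.5% of Cfb and 42.8% of C2. Of the exon bases within the last 500 bases of the gene, where 3′ reads fall, 81.8% were shared for Cfb and 2.10% for C2. How reads falling in more than 1 gene were counted is not stated, so the level of Cfb is uncertain. Cfi, which inactivates C3b and C4b, had means of 1482 ± 324 (SD, n = 3) and 1526 ± 325 (SD, n = 5).

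Terminal complement genes, which encode parts of the membrane pore, had 3 positive and 2 negative log2 fold changes and a median of 0.13. Without control 1 all 5 were negative, with a median of -0.14. C9, the pore-forming subunit, stood at 410, 849 and 1232 in controls and at 1564, 1023, 526, 1168 and 404 in the other group. Its log2 fold change of 0.14 (95% interval -0.96 to 1.24) is far inside the spread between libraries of 1 group. C8a, C8b and C8g encode the chains of C8, and their spreads differed. C8g ranged 1.22-fold over all 8 libraries, with a log2 fold change of -0.10 (95% interval -0.30 to 0.10), while C8a ranged 2.31-fold and C8b 3.02-fold. The neighbours C8a and C8b had a Pearson r of 0.60 (exact permutation p = 0.106, adjusted p = 0.106) and a Spearman rho of 0.71 (exact permutation p = 0.0576, adjusted p = 0.115), and r was 0.38 without control 1 and URI(+/D)Hep 5. C6, another pore component, had means of 241 ± 70.9 (SD, n = 3) and 268 ± 94.8 (SD, n = 5).

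The 3 roles had close medians. The median log2 fold change was -0.15 over 17 coagulation genes, -0.16 over 4 fibrinolysis genes and -0.16 over 15 complement genes. Of these, 11, 4 and 10 were negative. Within roles the medians ran from -0.53 for fibrinogen to 0.13 for terminal complement, but without control 1 these were -0.12 and -0.14. Without control 1 and URI(+/D)Hep 5 the coagulation median was 0.02, the fibrinolysis median -0.06 and the complement median -0.16. The complement median was -0.08 without control 3, -0.09 without URI(+/D)Hep 3, -0.10 without URI(+/D)Hep 5 and -0.32 after adjusting for Y-linked reads. The fibrinolysis median was -0.07 without URI(+/D)Hep 5 and -0.11 without URI(+/D)Hep 3.

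For 24 of the 36 genes the log2 fold change was smaller than the SD within groups, pooled over both groups. The share of all genes tested that meets this was not counted, so the count cannot be read as particular to these genes. The pooled SD within groups on the log2 scale ran from 0.08 for C8g and 0.10 for C3 to 0.91 for Mbl2 and 0.98 for Klkb1. Control 1 and URI(+/D)Hep 5, the libraries with the fewest Mki67 reads, stood together at an end of the range for 12 of 36 genes (33.3%), against 18.9% of all genes tested. They were the lowest for F5, F7, F10, F13b, Klkb1, Serpind1, Mbl2, C8a, C8b and C9, which is 27.8% of the 36 against 10.9% of all genes. They were the highest for Fgb and Fgg, 5.56% against 7.97%. These counts were made after the values were seen and carry no test.

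As mean log2 deviations from each gene's 8-library mean, terminal complement stood at -0.56 in control 1 and -0.52 in URI(+/D)Hep 5, and between -0.13 and 0.39 in the other libraries. Fibrinogen stood at 1.14 and 0.24 in those livers and between -0.42 and 0.23 elsewhere. Dividing cell markers stood at -2.47 and -2.06, against 0.17 to 1.24. Fibrinolysis genes did not pair these livers, at 0.15 in control 1 and -0.36 in URI(+/D)Hep 5. The part of cell division in these differences was not tested.

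**Figure D4:**
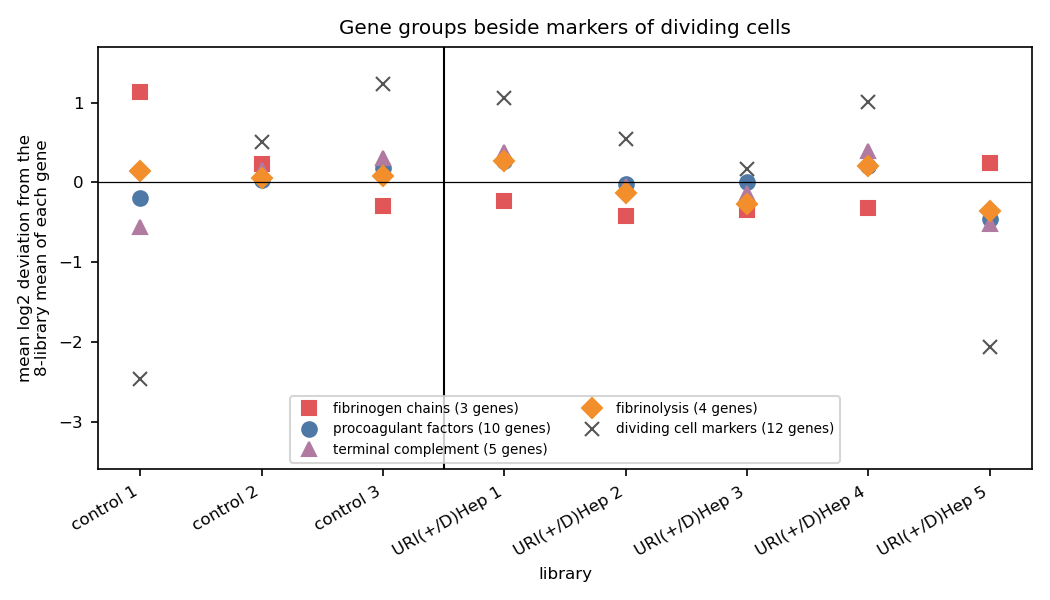
Mean log2 deviation from each gene's 8-library mean (vertical axis) by library, for 4 groups of genes and for dividing cell markers; the line parts 3 controls from 5 URI(+/D)Hep livers. Dividing cell markers and terminal complement are lowest in control 1 and URI(+/D)Hep 5, where fibrinogen is at 1.14 and 0.24.

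Other genes of both cascades gave 0 calls in any list with limma. Of 22 further coagulation and fibrinolysis genes tested, 15 were negative, where 50.2% of all genes were. At an unadjusted p under 0.05, limma counted 3 lower and 2 higher, against 9.33% and 8.35% of all genes. F8, factor VIII, which liver endothelium rather than hepatocytes makes, stood at 189 ± 39.4 (SD, n = 3) against 335 ± 65.7 (SD, n = 5) normalized reads (log2 fold change 0.82, SE 0.20, adjusted p = 0.115 by limma). Anxa2, a receptor for plasminogen, had a log2 difference of -0.67 ± 0.24 (SE; adjusted p = 0.208 by limma). Sinusoidal endothelial markers, F8 among them, summed to between 2286 and 2736 in controls and between 2842 and 3228 in the other group, with 10 of 12 positive. Their part in the F8 value was not tested.

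Of 30 further complement genes, 13 were negative and 17 positive, with a median of 0.05. The pair with the smallest p was Vsig4, a complement receptor of Kupffer cells, at 193 ± 57.7 against 279 ± 31.5 (SD, n = 3 and 5), and Clu, a fluid-phase inhibitor of the pore, at 2333 ± 579 against 1662 ± 138. Limma gave them adjusted p-values of 0.180 and 0.193. Of 8 genes of vitamin K recycling and factor processing, 5 were negative. Furin, a protease that trims pro-factors, stood at 1086 ± 207 (SD, n = 3) against 788 ± 47.5 (SD, n = 5), with a limma adjusted p of 0.138, and Calu, an inhibitor of the vitamin K cycle, at 1783 ± 441 against 1302 ± 140, with one of 0.214. Of 20 transcription factors and interleukin 6 signalling genes, 11 were negative. Prox1 stood at 1044 ± 48.3 (SD, n = 3) against 1393 ± 55.8 (SD, n = 5), with a limma adjusted p of 0.115, and Cux2, a female-biased factor of mouse liver, at 166 ± 54.8 against 379 ± 105, also with one of 0.115.

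Markers of other cells were measured in the same libraries. Neutrophil markers, 7 of 10 tested and all negative, summed to between 566 and 1214 in controls and between 316 and 915 in the other group, with Ly6g at 0 in at least 1 library. Kupffer cell markers, 9 of 12 positive, summed to between 6400.5 and 8066 against 6599.7 to 7880. Stellate cell markers, 5 of 10 positive, summed to between 1778 and 2088 against 1889 to 2172. Platelet and megakaryocyte markers, 4 of 8 in the table, summed to between 71.9 and 172 against 79.6 to 104, with Ppbp at 0 in at least 1 library. B cell markers, 5 of 7 in the table and 3 tested, summed to between 15.6 and 71.9 against 81.5 to 148, with Pax5 at 0 in at least 1 library. The 15.6 is a sum over 5 genes in control 1, where 3 reads of a gene correspond to 3.60. T and NK cell markers, 1 of 8 tested and 5 at 0 in at least 1 library, summed to between 11.99 and 49.3 against 22.2 to 84.1. Cholangiocyte markers, 4 of 6 tested, summed to between 254 and 1659 against 233 to 1169, with Krt19 at 0 in at least 1 library. Their part in the values of the clotting and complement genes was not tested.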

How the data were processed

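RNA was measured in 8 mouse liver libraries prepared with QuantSeq 3′ FWD, an oligo-dT method with a 6-nucleotide molecular identifier. The deposited table holds a signal per gene: gene counts that the authors had divided by library size factors, as its values show. Tools listed in the submitters' processing notes are featureCounts, bcl2fastq and DESeq2, with GRCm39 as build; the aligner, annotation and use of identifiers are not stated. Dividing each value by the smallest step of its library gave whole reads for 100% of values (tolerance 1e-06), and depth is the sum of those reads. No value column was without a sample.

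Genes at 10 or more in at least 3 libraries were tested on log2(value + 1) with limma 3.58.1 (R 4.3.3, trended variance), 3 controls against 5 URI(+/D)Hep libraries, with Benjamini-Hochberg adjustment over all 13704 genes and a threshold of 0.05. A fold change on this scale understates that of low genes. Single values also had a two-sided exact permutation test over the 56 ways to choose the groups, unadjusted, whose smallest p is 0.0179. Where groups do not overlap, this p is close to fixed and adds little. Intervals are 95%. The recovered reads were tested with edgeR 4.0.16 and DESeq2 1.42.0 as alternatives. The limma, edgeR and DESeq2 steps were tested on simulated data. Alternatives were the pseudocount, filter, normalization, variance trend, replicate block, a covariate for Y-linked reads and leaving out libraries. The level of 3 reads covers counting error only.

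The genes and lists were chosen with earlier results of these data known. Genes with values in every library were Fga, Fgb, Fgg, F2, C3, Plg, Serpinc1, those whose groups did not overlap, and the 3 with the smallest p in each direction; Klkb1, F11, C9 and the chain ratios were added after their values were seen. From each further pathway list the 2 genes with the smallest p are named. Promoter windows come from RefSeq (GRCm38.p6), and only exon overlap comes from GENCODE vM21; neither is the authors' build.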

Additional observations from a re-analysis of the deposited data

Results flagged for a closer look

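In 3 of 40 items tested, 1 of the 5 URI(+/D)Hep libraries stood far from the rest of its group, where chance gives about 1 in 20. The count is close to that rate. Fgb stood at 25825 normalized reads in URI(+/D)Hep 5, with the nearest library of the group at 18676. Fgg stood at 18471 in the same library, with the nearest at 13334. Fgb and Fgg varied together across libraries (Pearson r 0.989), so these flags are not separate. Kng1 stood at 6975 in URI(+/D)Hep 3, with the nearest at 5898.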

How the results depend on the processing

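With limma, 0 of the 36 genes were called under each alternative run, as with edgeR and DESeq2 on all 8 libraries; DESeq2 on recovered reads without URI(+/D)Hep 5, chosen after seeing the data, called 1 (Fga). Over all genes limma called 2, 29 without control 3 (10 higher, 19 lower), edgeR 3 lower, and DESeq2 339 lower and 234 higher. Without URI(+/D)Hep 5, DESeq2 called 255 lower and 123 higher of 11575 genes with an adjusted p. Of 756 values under 21 alternatives, 57 took the other direction, and 16 of the 36 genes kept theirs throughout. The coagulation median was 0.017 without both control 1 and URI(+/D)Hep 5. Uri1 was -0.0035 with edgeR and ranged from -0.13 to 0.16 when 1 library was left out. The replicate numbers did not pair the libraries (correlations -0.40, -0.04 and -0.27); with a replicate block, in which URI(+/D)Hep 4 and 5 take no part, limma called 0 and Proc was 0.063. Between control 3 alone (n = 1) and URI(+/D)Hep 2 to 5, the libraries holding both Xist and Y-linked reads, F5 was -0.20, F7 -0.19, F10 -0.20, F11 0.22, F13b -0.50, Klkb1 -0.60, Fgb 0.27, Fgg 0.13, Pros1 0.081, Serpind1 -0.58, Cpb2 0.071, Mbl2 -0.37, C6 -0.068, C8b -0.34, C9 -0.79. With the Y-linked share as covariate, F5 was -0.13, Klkb1 -0.29, Serpind1 -0.31, Cfi -0.059, C6 -0.083, C9 -0.45. Without both control 1 and URI(+/D)Hep 5, F11 was 0.13, Proc 0.12, Pros1 0.030, Vtn 0.060, C6 -0.0080, C8b -0.043, C9 -0.038. With quantile normalization, Proc was 0.019, Plg 0.023, Vtn 0.017. When 1 library was left out, the log2 fold changes that crossed 0 ranged as follows, F5 -0.037 to 0.16, F10 -0.025 to 0.33, F11 -0.70 to 0.0041, F13b -0.12 to 0.82, Klkb1 -0.17 to 0.69, Fgb -0.73 to 0.0074, Proc -0.16 to 0.069, Serpind1 -0.11 to 0.39, Plg -0.13 to 0.048, C1s1 -0.23 to 0.029, Mbl2 -0.044 to 1.21, Cfi -0.095 to 0.21, C6 -0.12 to 0.33, C8b -0.14 to 0.61, C9 -0.30 to 0.49. The cause of these reversals was not tested. C2 was left out by the filter on low values and lay near 3 reads.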
